A study of Homo sapiens with 27 samples.

Results

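The aldo-keto reductases AKR1C1, AKR1C2, AKR1C3, AKR1B1 and AKR1B10 and the NRF2 targets NQO1, HMOX1, GCLM, TXNRD1 and SRXN1 were followed across every condition of an RNA-seq study of ZEB1 repression in triple negative breast cancer cells. These 10 of 57165 measured genes were chosen by name with the size of the AKR1C1 difference in SUM159 cells already known, and the question was whether that difference came with a wider NRF2 response. The contrasts of ZEB1-targeted SUM159 cells with their No gRNA control are therefore given for these 10 genes as values without a p, with the number called as a description only, and results of tests are drawn from other genes and other contrasts.

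SUM159 and MDA-MB-231 are human triple negative breast cancer lines of mesenchymal character, and ZEB1 is a transcriptional repressor of epithelial genes. The lines were grown in different base media, and the paper lists insulin and hydrocortisone for SUM159 only. RNA was sequenced from 27 libraries in 9 groups of 3 replicates, with 15461200 to 21473757 estimated counts per library. SUM159 wild type cells carried no vector and appear in 2 runs, run 1 and run 2. Titles name run 2 for these cells only, and the B1 or B2 of the column names is read here as the run. The No gRNA cells of each line carried a lentiviral vector for dCas9-KRAB, a catalytically dead Cas9 fused to a repressor domain and driven by the ubiquitin C promoter, and had been selected with puromycin at 1.25 µg/mL in SUM159 or 0.75 µg/mL in MDA-MB-231. The gRNA 4 and All gRNA cells carried the same vector and selection with gRNA 4 alone or with a pool of 4 gRNAs against the ZEB1 promoter. By this reading the transduced SUM159 groups belong to run 1 and every MDA-MB-231 group to run 2. In MDA-MB-231 the labels of the targeted groups conflict, with titles naming gRNA 4 and column names naming the pool for set 1 and the reverse for set 2, so both are called by set. ZEB1 itself, in CPM, the counts per 1000000 of a library's total after TMM scaling between libraries, averaged 73.6 ± 3.45 (SD, n = 3) in SUM159 No gRNA cells, 3.45 ± 1.01 with gRNA 4 and 0.733 ± 0.328 with All gRNA, and 110.1 ± 10.0, 5.36 ± 0.527 and 4.74 ± 0.894 in MDA-MB-231 No gRNA, set 1 and set 2. ESR1 and PGR did not exceed a group mean of 0.320 CPM anywhere, and VIM was at 1326 to 4055 CPM. The epithelial keratin gene KRT18 had group means of 154 to 1114 CPM and ERBB2 of 42.0 to 63.8 CPM. The immune and liver markers PTPRC, CD3E and ALB stayed at or under a group mean of 0.197 CPM. The endothelial marker PECAM1 had group means of 0.809 to 6.53 CPM, and its part in the results below was not tested. In bulk RNA, fewer cells expressing a gene and less RNA per cell cannot be told apart.

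NRF2, encoded by NFE2L2, is held in the cytoplasm by KEAP1 and degraded until oxidants or electrophiles release it, after which it pairs with small MAF proteins at antioxidant response elements. BACH1 occupies many of the same elements as a repressor, most clearly at HMOX1. The aldo-keto reductases use NADPH to reduce carbonyl groups on steroids, prostaglandins and lipid aldehydes, and several of them are counted among human NRF2 targets.

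AKR1C1, AKR1C2 and AKR1C3 lie side by side on chromosome 10 between 4963253 and 5107686 (GRCh38). Their coding sequences are each 972 bases long and nearly alike, with 98.0% identical bases between AKR1C1 and AKR1C2, 91.5% between AKR1C1 and AKR1C3, and 91.0% between AKR1C2 and AKR1C3. This matters for reading the counts, because reads of 50 bases had to be divided between these genes. The stretch below, coding bases 111 to 140 in exon 2 of each gene, is where AKR1C1 and AKR1C2 differ most densely, at 6 of the 19 coding positions that separate them, with capitals at the 8 positions that vary among the 3 genes.
AKR1C1 (chr10:4965940-4965969, + strand): cACCaaattGgcaatTgaagcTggCttccG
AKR1C2 (chr10:5001626-5001655, - strand): cGTCaaattGgcaatAgaagcCggGttccA
AKR1C3 (chr10:5096436-5096465, + strand): cACAaaattAgcaatAgaagcTggGttccG
Of all words of 50 bases in the transcripts of GENCODE 44 examined here, 77.3% of those in AKR1C1 and 52.7% of those in AKR1C2 occurred in no other gene, and the pair shared 1447 words. The share was 81.4% for AKR1C3, 95% for AKR1B1, 82.0% for AKR1B10, 79.0% for NQO1, 98.3% for GCLM and 100% for HMOX1 and TXNRD1. Only 9.44% of the words in SRXN1 were its own, because a readthrough gene covers it, and that gene held at most 4.96% of the SRXN1 count in any library. Levels of AKR1C1, AKR1C2 and SRXN1 are thus uncertain in how reads were divided.

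The core letters of the antioxidant response element, TGACNNNGC, were looked for on both strands in the 1000 bases before the RefSeq start sites. They occurred in 31.9% of all 35116 promoters and in 21 of 28 promoters (75.0%) of the wider list of NRF2 targets used below. Of the 8 members with an entry, GCLM, TXNRD1 and NQO1 held the letters and AKR1C1, AKR1C2, AKR1C3, AKR1B1 and SRXN1 did not hold them in this window. A match is a description of letters and not evidence of binding, and HMOX1 and AKR1B10 had no entry. The 4 matches are shown with the core in capitals.
GCLM, 34 bases before its start (chr1:93909446-93909474, + strand): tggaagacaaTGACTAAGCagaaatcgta
TXNRD1, 99 bases before its first start (chr12:104215670-104215698, + strand): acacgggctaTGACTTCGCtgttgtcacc
TXNRD1, 102 bases before its second start (chr12:104286920-104286948, - strand): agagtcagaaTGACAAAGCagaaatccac
NQO1, 455 bases before its start (chr16:69726997-69727025, - strand): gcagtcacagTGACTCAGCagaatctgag
The NQO1 match lies in an exon of the divergent transcript NQO1-DT and its letters overlap those of an AP-1 site. The GCLM match touches the first exon of 1 longer GCLM transcript, the first TXNRD1 match lies before the gene, and the second lies within TXNRD1 where 3 transcripts have non-coding exon sequence.

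AKR1C1, which reduces progesterone to its inactive 20-hydroxy form, had the largest log2 difference from No gRNA cells of the 9 members tested in ZEB1-targeted SUM159 cells. Its level was 25.5, 22.8 and 23.96 CPM in the No gRNA libraries, 66.6, 59.5 and 61.4 with gRNA 4, and 60.3, 67.2 and 71.2 with All gRNA. The targeted libraries all lay above the control libraries, and also above the run 1 wild type libraries at 28.5, 26.2 and 28.3 CPM. On the log2 scale the difference from No gRNA was 1.46 ± 0.09 (SE) for All gRNA and 1.37 ± 0.09 for gRNA 4, which are 2.75-fold and 2.58-fold. Against the run 1 wild type cells the same targeted libraries stood 1.25 and 1.16 higher on the log2 scale.

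**Figure D1:**
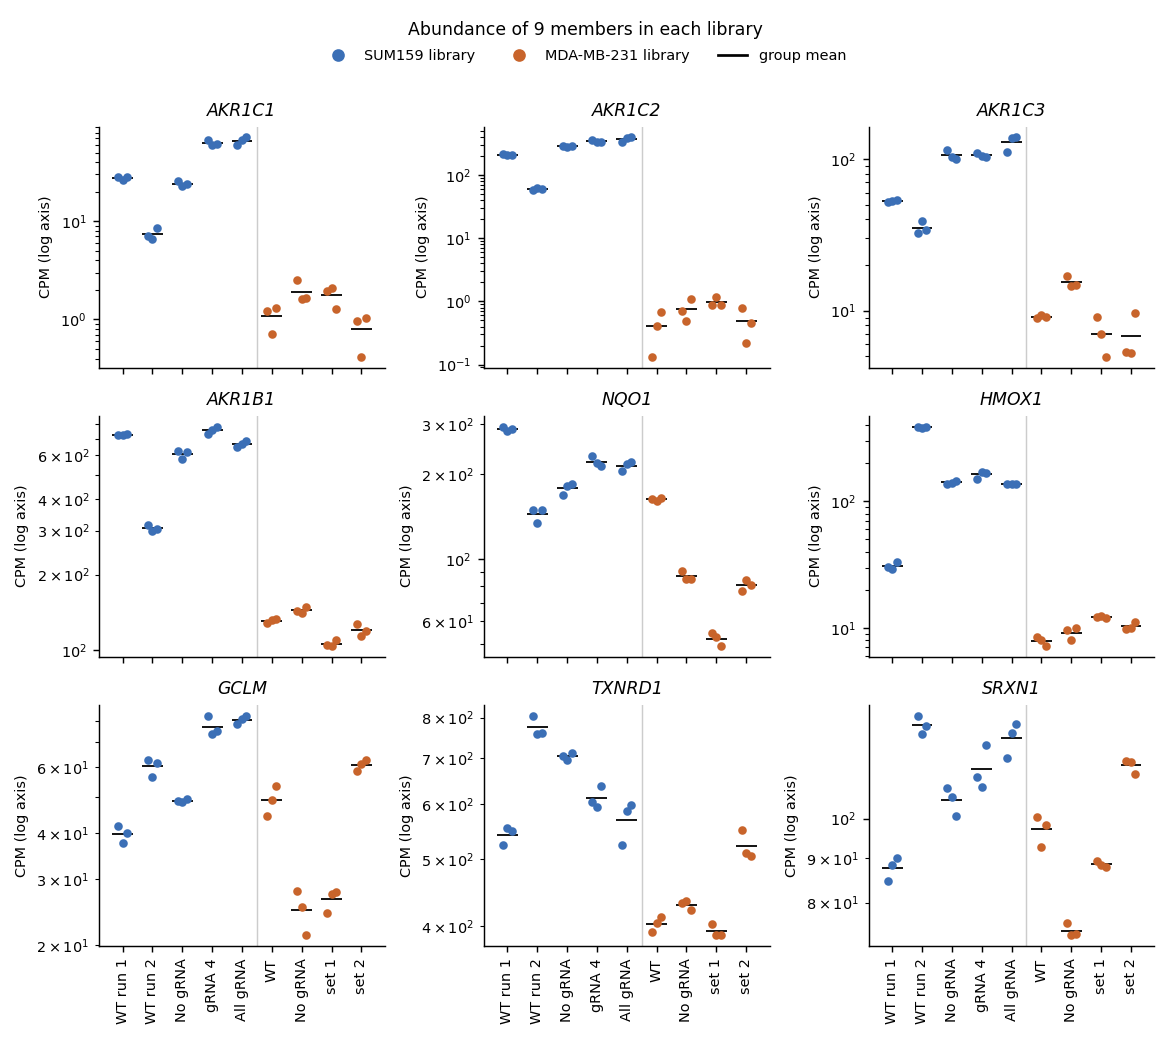
Level of 9 members in each of the 27 libraries, in CPM after TMM scaling on log axes that differ between panels, with SUM159 libraries in blue, MDA-MB-231 libraries in orange and a bar at each group mean. In SUM159, AKR1C1 sits at 59.5 to 71.2 CPM in the 6 targeted libraries against 22.8 to 28.5 in the No gRNA and run 1 wild type libraries, whereas HMOX1 separates the controls from each other, from 29.4 to 391 CPM.

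AKR1C2, a near copy that reduces dihydrotestosterone, read 297, 279 and 294 CPM without gRNA, 358, 336 and 341 with gRNA 4, and 343, 385 and 398 with All gRNA. Its libraries did not overlap either, but the difference was 0.24 ± 0.06 for gRNA 4 and 0.37 ± 0.06 for All gRNA on the log2 scale. AKR1C1 took 7.67% ± 0.213 (SD, n = 3) of the combined AKR1C1 and AKR1C2 counts in No gRNA cells, 15.3% ± 0.320 with gRNA 4 and 15% ± 0.164 with All gRNA. In wild type cells that share was 11.5% ± 0.354 in run 1 and 10.9% ± 1.28 in run 2, so the No gRNA cells were the lowest of the SUM159 groups. The sum of the pair, which does not depend on how shared reads were split between them, was 314 ± 10.9 CPM in No gRNA cells, 407 ± 15.3 in gRNA 4 cells and 441 ± 33.9 in All gRNA cells. Its log2 difference from No gRNA was 0.37 and 0.49, against 1.37 and 1.46 for AKR1C1 alone.

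**Figure D2:**
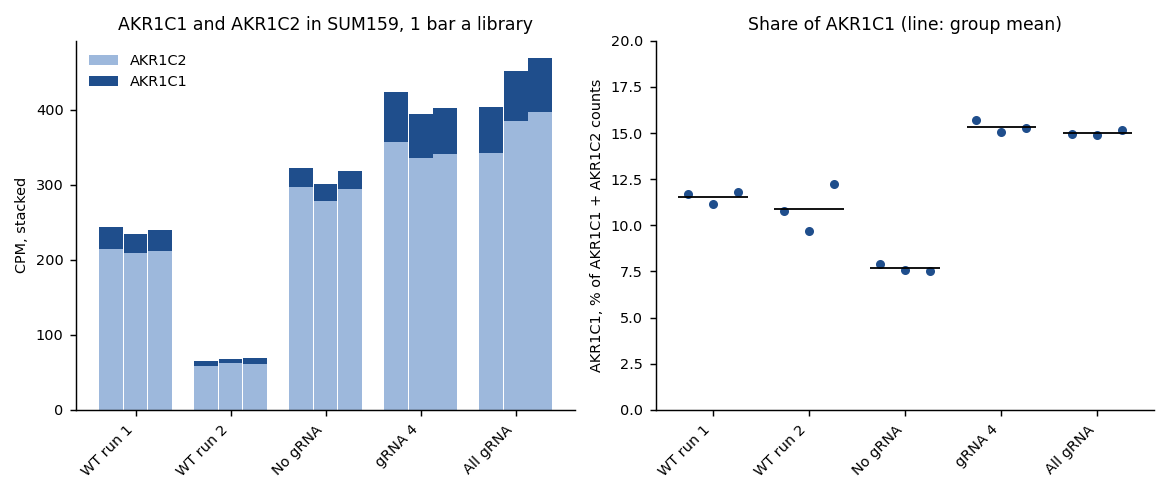
Left, AKR1C1 and AKR1C2 stacked in CPM, with 1 bar for each SUM159 library. Right, the share of AKR1C1 in the counts of the pair in percent, with 1 point for each library and a line at the group mean, which is 7.67% in No gRNA cells and 15% to 15.3% in the targeted cells.

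AKR1C3, which makes testosterone and prostaglandin F2 alpha in peripheral tissue, was at 114, 102 and 100.1 CPM without gRNA and 109.6, 104 and 103 with gRNA 4, a log2 difference of -0.01 ± 0.09. All gRNA libraries read 111, 136 and 138 CPM, overlapping the control, with a log2 difference of 0.29 ± 0.08. Wild type cells of run 1 had 51.7, 52.6 and 53.3 CPM, so AKR1C3 rose 0.99 ± 0.09 on the log2 scale, 1.99-fold, between wild type and No gRNA cells (limma moderated test, adjusted p = 6.48e-06).

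AKR1B1, the aldose reductase of the polyol pathway, read 622, 582 and 619 CPM in No gRNA cells, 729, 759 and 781 with gRNA 4 and 647, 663 and 683 with All gRNA. Neither targeted group overlapped No gRNA. Run 1 wild type libraries were at 724, 721 and 731 CPM, so that the gRNA 4 libraries overlapped them and the All gRNA libraries lay between both controls. Its log2 difference from No gRNA was 0.31 ± 0.04 for gRNA 4 and 0.13 ± 0.04 for All gRNA. AKR1B10, a retinal reductase close to it on chromosome 7, had 0 to 5.38 estimated counts per library over all 27 libraries, was too low to be tested in any contrast, and no fold is given for it.

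Among the NRF2 targets proper, GCLM came nearest to AKR1C1. GCLM is the modifier subunit of glutamate-cysteine ligase, the rate-limiting enzyme of glutathione synthesis. It read 48.7, 48.5 and 49.3 CPM without gRNA, 82.5, 73.5 and 75.2 with gRNA 4, and 78.4, 80.9 and 82.4 with All gRNA, above both No gRNA and run 1 wild type cells (41.7, 37.6 and 40.0). The log2 difference from No gRNA was 0.65 ± 0.07 for gRNA 4 and 0.73 ± 0.07 for All gRNA, or 1.57-fold and 1.65-fold.

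The other 4 targets did not share one direction. NQO1, the quinone reductase often used as the reference gene of NRF2 activity, was at 168, 181 and 184 CPM without gRNA, 230.4, 219 and 214 with gRNA 4 and 204, 216 and 219.8 with All gRNA, a log2 difference of 0.31 ± 0.05 and 0.27 ± 0.05. All 6 targeted libraries nonetheless lay under the run 1 wild type libraries at 294, 284 and 288 CPM. TXNRD1, cytosolic thioredoxin reductase, was lower in every targeted library than in the No gRNA libraries. It read 705, 696 and 712 CPM without gRNA, 605, 594 and 638 with gRNA 4 and 524, 586 and 599 with All gRNA (log2 difference -0.21 ± 0.05 and -0.30 ± 0.05). Run 1 wild type libraries were at 524 to 555 CPM, and against them the log2 difference was 0.16 with gRNA 4 and 0.064 with All gRNA. HMOX1, which degrades heme, read 138, 139 and 146 CPM without gRNA, 151, 171 and 169 with gRNA 4, and 137, 138 and 137 with All gRNA, where it overlapped the control (0.20 ± 0.06 and -0.03 ± 0.06). SRXN1, which restores overoxidized peroxiredoxins, was at 109, 106 and 101 CPM without gRNA, 112, 109 and 122 with gRNA 4 and 117, 126 and 129 with All gRNA (0.11 ± 0.06 and 0.24 ± 0.06).

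Counted over the 9 members that could be tested, 6 were called higher and 1 lower at an adjusted p under 0.05 in All gRNA cells, where 10.8% of all 15147 genes tested were called (5.93% higher and 4.89% lower). With gRNA 4 the counts were likewise 6 and 1, where 11.0% of all genes were called (6.11% higher and 4.91% lower). Since these contrasts chose the members, nothing is read from the counts. The median log2 difference of the 9 members was 0.27 with All gRNA and 0.24 with gRNA 4, beside 0.00 over all genes tested in both contrasts. Nothing is read from these medians for the same reason. Both contrasts use the same No gRNA libraries. Between All gRNA and gRNA 4 cells, 0 of 9 members were called by limma, where 0.944% of all genes were (0.561% higher and 0.383% lower), with log2 differences of -0.24 to 0.29. An unadjusted p under 0.05 was reached by 5, edgeR called 0, and DESeq2 called 3, AKR1C3 higher and AKR1B1 and HMOX1 lower with All gRNA. The shares of all genes under these 3 criteria were not computed, and the libraries of both groups took part in the choice of members. These counts are therefore a description only. In limma AKR1C3 was called without All gRNA replicate 1 (0.39) and HMOX1 without gRNA 4 replicate 1 (-0.29). AKR1C1 differed between them by 0.09 ± 0.08 (adjusted p = 0.705).

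**Figure D3:**
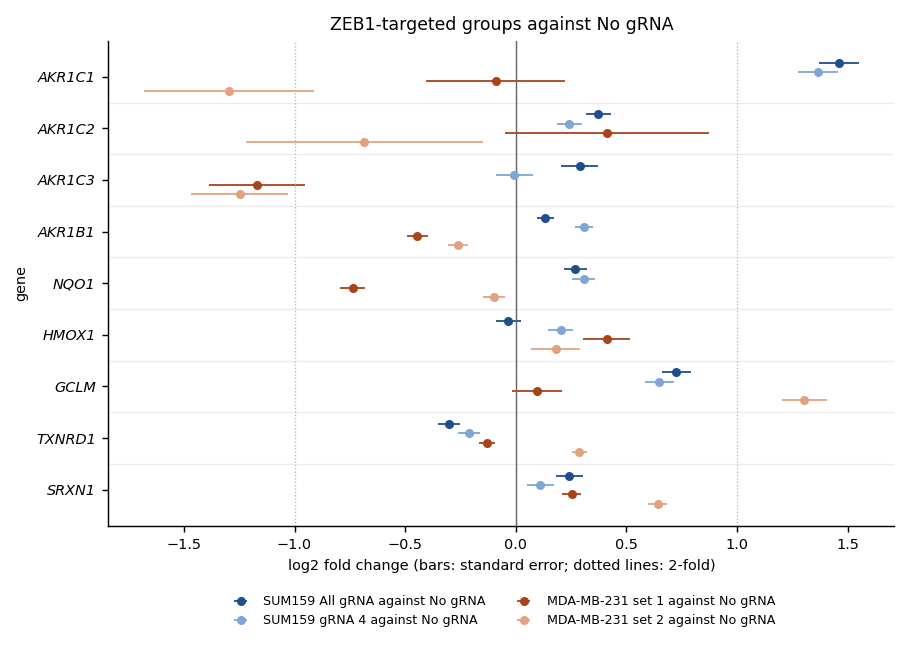
Log2 fold change of 9 members in ZEB1-targeted cells against No gRNA cells of the same line, with SE bars and dotted lines at 2-fold. AKR1C1 stands at 1.46 and 1.37 in SUM159 and at -0.09 and -1.30 in MDA-MB-231, GCLM is above 0 in all 4 contrasts, and AKR1B1 and NQO1 lie on opposite sides of 0 in the 2 lines.

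A wider list of 32 NRF2 targets, with the members left out, was tested in the same contrasts. With All gRNA, 4 of the 30 genes tested rose and 2 fell, and the list had a median log2 difference of 0.06. Among the risers were the heme transporter gene SLC48A1 (0.42 ± 0.10, adjusted p = 0.021), the thioredoxin gene TXN (0.33 ± 0.05, adjusted p = 0.00138) and the ferritin heavy chain gene FTH1 (0.17 ± 0.03, adjusted p = 0.00778). IDH1, a source of NADPH (-0.36 ± 0.06, adjusted p = 0.00407), and the ferritin light chain gene FTL (-0.20 ± 0.03, adjusted p = 0.00147) fell. With gRNA 4, 6 rose and 5 fell around a median of 0.01, with PTGR1 (0.53), SLC48A1 (0.39) and TXN (0.38) among those upward and FTL (-0.43), SQSTM1 (-0.40), PIR (-0.39) and ABCC3 (-0.36) among those downward. The SLC48A1 call was lost without All gRNA replicate 2 (0.36) or any 1 No gRNA library (0.40 to 0.44) in the first contrast, and without gRNA 4 replicate 1 or 2 or any 1 No gRNA library (0.32 to 0.40) in the second. With gRNA 4 the PTGR1 call was lost without No gRNA replicate 1 (0.44) and the ABCC3 call without No gRNA replicate 1 or 3 or any 1 gRNA 4 library (-0.39 to -0.30). With limma 0 genes of this list passed TREAT, a stricter test of a change beyond 2-fold, in either contrast, also at an unadjusted p under 0.05, beside 0.396% of all genes with All gRNA and 0.390% with gRNA 4. The called share of the list, 6 of 30 and 11 of 30, is set beside the 10.8% and 11.0% over all genes as a description only. All gRNA and gRNA 4 cells differed at FTL (0.23), PIR (0.41) and SQSTM1 (0.30), each higher with All gRNA. Without All gRNA replicate 2 only FTL remained called. The PIR call was also lost without All gRNA replicate 3 or any 1 of the 3 gRNA 4 libraries (0.36 to 0.46).

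Among the glutathione genes of the list, GCLC, SLC7A11 and GSR had log2 differences of -0.09, -0.15 and -0.01 with All gRNA. GCLC is the catalytic partner of GCLM, SLC7A11 imports cystine and GSR regenerates reduced glutathione. With limma 0 of these 3, 0 of 3 transporter genes and 0 of 6 detoxification genes were called with All gRNA, where 10.8% of all genes were. Each group held 1 gene with an unadjusted p under 0.05. With gRNA 4, 0 of the glutathione genes were called, 1 transporter gene fell and 1 detoxification gene rose, where 11.0% of all genes were called. Groups of this size are too small to read these counts as a result. GPX2 and ALDH3A1 were too low to be tested in any group. In this list 20 genes differed between All gRNA and run 1 wild type cells and 19 between gRNA 4 and run 1 wild type cells. The share over all genes was not computed for these contrasts, so the counts are a description only.

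Of the 8 regulators, 1 was called with All gRNA and 1 with gRNA 4, where 10.8% and 11.0% of all genes were called. NFE2L2 differed by 0.07 ± 0.07 with All gRNA (adjusted p = 0.571) and 0.04 ± 0.07 with gRNA 4 (adjusted p = 0.73), and KEAP1 by -0.17 (adjusted p = 0.323) and -0.18 (adjusted p = 0.296). BACH1 scattered widely, from 13.6 to 47.8 CPM among the All gRNA libraries, and its differences of 0.68 and 0.73 had an SE of 0.49. The regulators called were NFE2L1, which fell with All gRNA (-0.22, adjusted p = 0.0127), and MAFG, which rose with gRNA 4 (0.21, adjusted p = 0.0443). The NFE2L1 call was lost without All gRNA replicate 2 or No gRNA replicate 1 or 2 (-0.20 to -0.18) and the MAFG call without any 1 of the 6 libraries compared (0.19 to 0.23). RNA abundance says nothing of the amount of NRF2 protein, which is the regulated quantity. Of the 4 other aldo-keto reductases that could be tested, AKR1A1 rose with All gRNA (0.31 ± 0.08, adjusted p = 0.0377) and AKR1B15, AKR1E2 and AKR7A2 did not pass the test. The AKR1A1 call was lost without All gRNA replicate 2 or 3 or No gRNA replicate 1 or 2 (0.24 to 0.29).

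**Figure D4:**
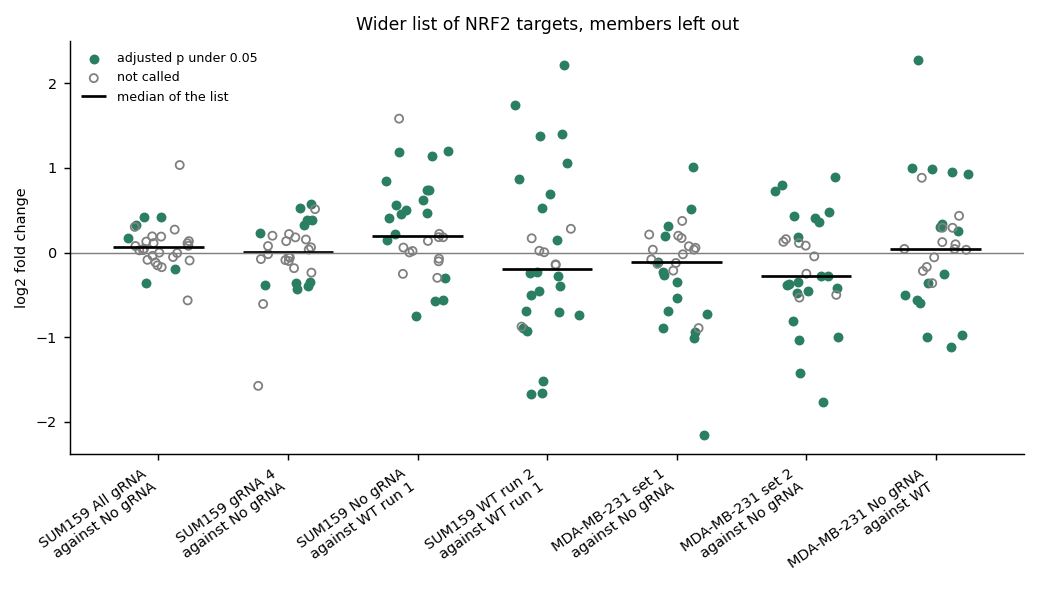
Log2 fold change of each gene of the wider NRF2 target list, members left out, in 7 contrasts, filled where the adjusted p is under 0.05 and with a line at the median of the list. Of 30 genes tested, the SUM159 targeted contrasts hold 6 and 11 called on both sides of 0, beside 10.8% and 11.0% of all genes. The contrast of No gRNA with wild type cells holds 18, beside 42.9% of all genes. Between the wild type runs there are 23, beside 58.8% of all genes.

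Several members also differed between the control groups of SUM159, HMOX1 by the most. It read 30.2, 29.4 and 33.3 CPM in run 1 wild type cells, 138, 139 and 146 in No gRNA cells of the same run, and 386, 383 and 391 in wild type cells of run 2. These groups were far apart with no overlap, a rise of 2.18 ± 0.07 on the log2 scale with the vector (4.54-fold, adjusted p = 1.62e-09) and of 3.63 ± 0.06 between the wild type runs (12.4-fold, adjusted p = 7.97e-14), and both passed TREAT. With the vector HMOX1 was the 1 member to do so, beside 1.53% of all genes. The No gRNA libraries here are those of the contrast that chose the members.

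Between No gRNA and run 1 wild type cells, 6 of 9 members rose and 2 fell, where 42.9% of all genes were called (21.0% higher and 21.9% lower). Beside HMOX1 and AKR1C3, AKR1C2 rose by 0.44 (adjusted p = 0.000103), TXNRD1 by 0.37 (adjusted p = 0.000104), GCLM by 0.29 (adjusted p = 0.00616) and SRXN1 by 0.25 (adjusted p = 0.00642). NQO1 fell by 0.71 (adjusted p = 7.08e-07) and AKR1B1 fell by 0.27 (adjusted p = 0.000224). AKR1C1 differed by -0.21 ± 0.10 and was not called (adjusted p = 0.107), although its libraries did not overlap, whereas the sum of AKR1C1 and AKR1C2 rose by 0.38. In the wider list 14 genes rose and 4 fell, with FTH1 (1.20), SQSTM1 (1.19) and BLVRB (1.14) upward and SLC7A11 (-0.57) downward, and NFE2L2 fell by 0.58 (adjusted p = 1.92e-05). Vector, puromycin and time in culture cannot be told apart in this contrast.

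Wild type SUM159 cells of run 2 differed from those of run 1 at all 9 members, 4 up and 5 down, where 58.8% of all genes were called (28.9% up and 30.0% down), and 4 passed TREAT beside 6.47% of all genes. AKR1C1 was 28.5, 26.2 and 28.3 CPM in run 1 and 7.08, 6.63 and 8.48 in run 2, and so fell by 1.92 ± 0.13 on the log2 scale (adjusted p = 2.32e-08) with no treatment at all. AKR1C2 fell by 1.82 (215, 209 and 212 against 58.8, 61.9 and 60.9 CPM, adjusted p = 1.21e-10), AKR1B1 by 1.26 (adjusted p = 1.76e-11), NQO1 by 1.02 (adjusted p = 1.83e-09) and AKR1C3 by 0.60 (adjusted p = 0.000311). The 4 member reductases tested and NQO1 were thus lower in run 2, and GCLM, SRXN1, TXNRD1 and HMOX1 higher. Of the 4 other aldo-keto reductases tested, 3 rose between the runs, AKR1E2 (1.42), AKR1A1 (0.49) and AKR7A2 (0.29), the last not called without run 1 wild type replicate 1 (0.19). GCLM rose by 0.59 (adjusted p = 6.12e-06), SRXN1 by 0.53 (adjusted p = 2.31e-06) and TXNRD1 by 0.50 (adjusted p = 6.07e-07). For 8 of the 9 members the difference between the wild type runs was larger in size than in either targeted contrast, GCLM being the exception. That ordering was not tested, and the share of all genes that show it was not computed. It is not read as particular to the members, as the targeted contrasts called 10.8% and 11.0% of all genes against 58.8% here. NFE2L2 fell by 0.76 (adjusted p = 2.95e-07) between the runs while KEAP1 was not called (0.17, adjusted p = 0.152), and in the wider list 9 genes rose and 14 fell, with SQSTM1 (2.21) and BLVRB (1.75) highest and SLC7A11 (-1.67) lowest. Sequencing run, culture and RNA preparation cannot be told apart here.

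**Figure D5:**
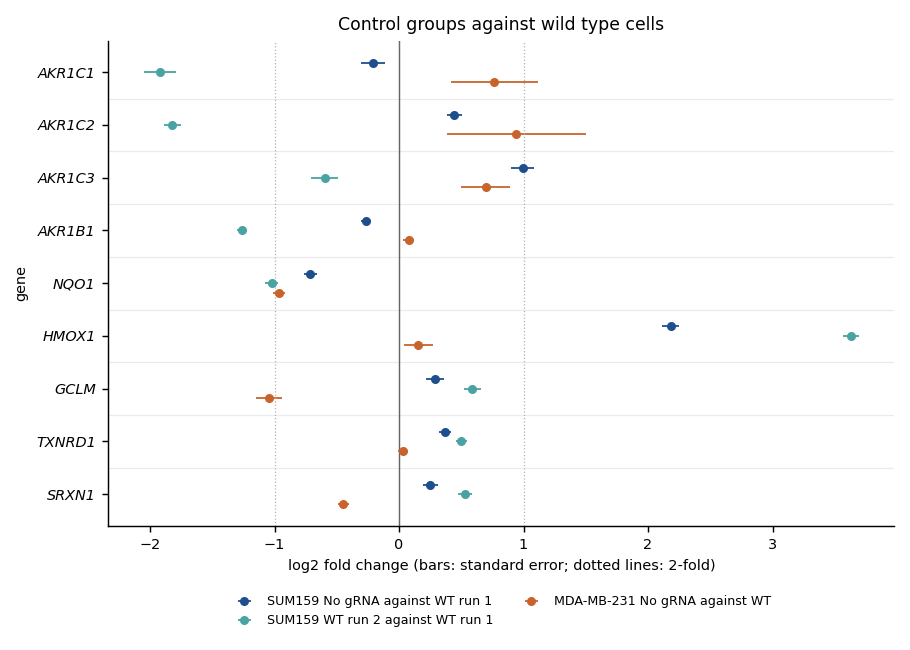
Log2 fold change of 9 members among groups without a gRNA, with SE bars and dotted lines at 2-fold. Between the SUM159 wild type runs HMOX1 stands at 3.63 and AKR1C1 at -1.92, and with the vector HMOX1 stands at 2.18 in SUM159 and 0.16 in MDA-MB-231.

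MDA-MB-231 cells had far less of the AKR1C genes. Within run 2, AKR1C1 was 2.74 ± 0.30 higher on the log2 scale in wild type SUM159 than in wild type MDA-MB-231 cells (6.68-fold, adjusted p = 1.47e-06), AKR1C3 1.90 higher (3.73-fold, adjusted p = 3.08e-07) and AKR1B1 1.19 higher (2.28-fold, adjusted p = 6.27e-12). AKR1C2 was 7.30 ± 0.41 higher (158-fold, adjusted p = 1.32e-09), which rests on 2.21 to 12.3 estimated counts in the MDA-MB-231 wild type libraries. HMOX1 was 47.6-fold higher in SUM159 (adjusted p = 2.7e-15), and NQO1 was slightly lower (-0.22, adjusted p = 0.000767). In all, 8 members were higher and 1 lower in SUM159 where 73.0% of all genes were called (33.8% higher and 39.2% lower), and 5 passed TREAT beside 28.8%. NFE2L2 was also higher in SUM159 (1.21, adjusted p = 2.98e-10) and KEAP1 lower (-1.30, adjusted p = 8.58e-10). Line and culture medium cannot be told apart in this contrast.

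In ZEB1-targeted MDA-MB-231 cells AKR1C1 was not called higher than in No gRNA cells in either set. It read 2.50, 1.60 and 1.65 CPM without gRNA, 1.97, 2.11 and 1.28 in set 1 and 0.959, 0.418 and 1.03 in set 2. Set 1 overlapped the control (-0.09 ± 0.31, adjusted p = 0.846) and set 2 fell by 1.30 ± 0.38 on the log2 scale (adjusted p = 0.0142), on 7.20 to 44 estimated counts per library. Without set 2 replicate 2 the fall was not called (-0.88). Against wild type cells, at 1.22, 0.717 and 1.29 CPM, both sets overlapped and neither was called, with a log2 difference of 0.67 for set 1 (adjusted p = 0.128) and -0.53 for set 2 (adjusted p = 0.354). The difference in AKR1C1 response between the lines was not tested, and for the transduced cells line, culture medium and run cannot be told apart.

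AKR1C3 fell in both MDA-MB-231 sets. It read 17.0, 14.5 and 14.9 CPM without gRNA, 9.12, 6.98 and 4.98 in set 1 and 5.36, 5.27 and 9.69 in set 2, falls of 1.17 ± 0.22 (adjusted p = 0.00136) and 1.25 ± 0.22 (adjusted p = 0.000527). Wild type cells were at 8.97, 9.33 and 9.02 CPM, and against them neither set was called (-0.47, adjusted p = 0.104, and -0.55, adjusted p = 0.0905). AKR1B1 fell in set 1 (-0.44 ± 0.05, adjusted p = 2.1e-05) and set 2 (-0.26 ± 0.05, adjusted p = 0.000512), and with 104 to 126 CPM in the 6 targeted libraries it lay below both No gRNA and wild type cells, at 128 to 148 CPM. AKR1C2 stayed between 0.133 and 1.17 CPM in all MDA-MB-231 libraries and was not called in either set.

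GCLM showed the largest member rise in this line. It read 28.0, 25.3 and 21.3 CPM without gRNA, 24.3, 27.5 and 27.8 in set 1, and 58.6, 61.2 and 62.7 in set 2. Set 1 overlapped the control (0.10 ± 0.11, adjusted p = 0.547), and set 2 rose by 1.30 ± 0.10 on the log2 scale, 2.47-fold (adjusted p = 7.5e-07), without passing TREAT (adjusted p = 0.104). Wild type cells, at 44.4, 48.9 and 53.5 CPM, also stood above No gRNA cells, so that the set 2 rise was 0.26 against wild type (adjusted p = 0.0364) and set 1 was 0.95 below wild type.

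The remaining targets parted by set. NQO1 fell in set 1 (54.5, 52.9 and 49.2 CPM against 90.9, 84.9 and 84.8, log2 difference -0.74 ± 0.06, adjusted p = 1.77e-06) and was not called in set 2 (-0.10 ± 0.05, adjusted p = 0.129). TXNRD1 was 433, 435 and 422 CPM without gRNA, fell slightly in set 1 (-0.13, adjusted p = 0.0162, but not called at -0.12 without set 1 replicate 3) and rose in set 2 (0.29, adjusted p = 3.38e-05). SRXN1 rose in set 1 (0.25, adjusted p = 0.000945) and more in set 2 (0.64, adjusted p = 2.22e-07). HMOX1, at 7.22 to 12.3 CPM throughout the line, rose in set 1 (0.41 ± 0.11, adjusted p = 0.0101) and was not called in set 2 (0.18, adjusted p = 0.188).

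In all, 2 members rose and 4 fell in set 1, where 37.8% of all genes were called (20.4% higher and 17.3% lower). In set 2, 3 rose and 3 fell, where 52.4% were called (27.3% higher and 25.1% lower). With limma 0 members passed TREAT in either set, where 1.47% and 4.14% of all genes did. At an unadjusted p under 0.05 these counts were 0 in set 1 and 1 in set 2, with edgeR 0 and 1, and with DESeq2 0 in each. The shares of all genes under these alternatives were not computed. The median log2 difference of the members was -0.09 in set 1 and -0.10 in set 2, beside -0.01 over all genes in each. Both sets share the No gRNA libraries. Directly compared, set 1 was higher than set 2 at 1 member, AKR1C1 (1.21, adjusted p = 0.0232), a call lost without set 1 replicate 1 (1.10) or 2 (1.05) or set 2 replicate 2 (0.80). It was lower at 5, with GCLM furthest apart (-1.21 ± 0.10, adjusted p = 1.51e-06) and NQO1 (-0.64), TXNRD1 (-0.42), SRXN1 (-0.39) and AKR1B1 (-0.19) following, where 51.5% of all genes were called (26.3% higher and 25.2% lower).

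The wider list held risers and fallers in the same line, as did all genes. In set 1, 4 of 29 genes rose, with OSGIN1 (1.01) leading, and 11 fell, with PIR (-2.15) and IDH1 (-1.01) leading. Over all genes 20.4% were called higher and 17.3% lower there. In set 2, 8 rose, with the peroxiredoxin gene PRDX1 (0.90, adjusted p = 8.54e-08), CBR3 (0.79) and TXN (0.73, adjusted p = 7.28e-09) leading, and 13 fell. Over all genes 27.3% were called higher and 25.1% lower there. The counts are a description only. The cystine transporter gene SLC7A11 fell by 1.76 in set 2 (adjusted p = 5.99e-08), and FTH1 fell by 1.03. SLC7A11 was the 1 gene of the list to pass TREAT there, beside 4.14% of all genes. In set 1, 4 of the 8 regulators rose and 0 fell, where 37.8% of all genes were called. They were MAFK (0.92), MAFG (0.41), MAFF (0.35) and NFE2L1 (0.12), the last kept in 4 of 6 refits without 1 library. NFE2L2 was not called in set 1 (-0.11) and fell in set 2 (-0.50, adjusted p = 5.93e-06). In set 2, 1 regulator rose and 4 fell, where 52.4% of all genes were called. BACH1 fell there from a mean of 442 to 185 CPM (-1.25, adjusted p = 4.61e-06), MAFF (-1.06) and NFE2L1 (-0.44) fell, and KEAP1 rose (0.37, adjusted p = 0.000275). These set 2 differences rest on a control that itself stood apart from wild type, as follows.

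No gRNA cells of MDA-MB-231 differed from wild type cells at 4 members, where 53.8% of all genes were called (26.2% higher and 27.6% lower). GCLM fell by 1.04 (adjusted p = 5.11e-06), NQO1 by 0.96 (adjusted p = 1.2e-08) and SRXN1 by 0.45 (adjusted p = 4.59e-06), and AKR1C3 rose by 0.70 (adjusted p = 0.0113). HMOX1 was not called (0.16, adjusted p = 0.272) in this line, while it rose 4.54-fold with the vector in SUM159, and that difference between lines was not tested. BACH1 rose by 2.45 (adjusted p = 7.91e-08), SLC7A11 by 2.28 (adjusted p = 1.28e-08) and NFE2L2 by 0.52 (adjusted p = 3.89e-06), and TXN fell by 1.12 (adjusted p = 1.42e-10).

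In SUM159 the gRNA 4 libraries lay above all No gRNA and run 1 wild type libraries at 5 of 9 members (AKR1C1, AKR1C2, HMOX1, GCLM and SRXN1), beside 8.93% of all genes, and the All gRNA libraries at 4 (AKR1C1, AKR1C2, GCLM and SRXN1), beside 8.69%. As the No gRNA libraries took part in the choice of members, nothing is read from these 2 counts. In MDA-MB-231, set 1 was above both controls at 1 member, HMOX1, beside 17.8% of all genes, and set 2 at 3, GCLM, TXNRD1 and SRXN1, beside 13.5%. Both sets were below both controls at AKR1B1 and NQO1, beside 13.5% of all genes for set 1 and 9.20% for set 2. GCLM and SRXN1 were above both controls in both SUM159 groups and in set 2, and overlapped the range of the controls in set 1. The SUM159 part rests on the libraries that took part in the choice, and the share of all genes with this pattern was not computed. Nothing is read from it.

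Across the 9 groups, group means spanned the widest range for AKR1C2, from 0.402 to 375 CPM, and the narrowest for SRXN1, from 74.3 to 128 CPM, with TXNRD1 next at 393 to 775 CPM. AKR1C1 ran from 0.802 CPM in MDA-MB-231 set 2 to 66.2 in SUM159 All gRNA cells, in the order set 2, MDA-MB-231 wild type, set 1, No gRNA, then SUM159 wild type run 2, No gRNA, wild type run 1, gRNA 4 and All gRNA. The 4 MDA-MB-231 groups overlapped with a neighbour in that order, as did SUM159 gRNA 4 and All gRNA. The genes whose group means were most like those of AKR1C1 over these 9 groups, among 13759 genes tested in every fit, were ARID5B and S100A2 (Pearson r = 0.990 each), RXRA and IRF2 (0.988 each) and ADGRL2 (0.986). The groups of 1 line share that line and mostly 1 run, so these values describe the gap between the lines as much as any other pattern.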

How the data were processed

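The authors sequenced 50 bp single-end reads, ran Salmon, collapsed its transcript estimates per gene in tximport, and deposited estimated counts with transcript length corrected between libraries and no scaling between libraries. GRCh38 is named in the submitters' processing notes, while the Salmon version, annotation and strandedness are not given in the sources used here. The paper describes the replicates as individual clones, and p-values measure the spread among these libraries only. The 10 members and all lists were chosen with earlier results of these data known.

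Estimated counts were analysed unrounded with voom in limma 3.58.1 (R 4.3.3), with TMM scaling from edgeR 4.0.16, a minimum count of 10 and 1 fit for the 12 libraries of each line, 15 for the wild type contrasts. A gene "rose" or "fell" at a Benjamini-Hochberg adjusted p under 0.05 over all genes tested (15147 to 16473), and TREAT tested changes beyond a log2 value of 1. Adjusted p-values are from limma. Printed CPM are group means with SD or single libraries. Named beside the members were up to 4 risers and 4 fallers of each list per contrast and NFE2L2, KEAP1 and BACH1, apart from 1 gene that is counted but not reported here by name. DESeq2 1.42.0 (rounded counts), edgeR quasi-likelihood, other scalings, filters and controls were alternatives. The fits were tested on simulated data. Symbols were matched for 56347 of 57165 identifiers, and the printed sequences came from RefSeq promoters and GENCODE 44 on GRCh38.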

Additional observations from a re-analysis of the deposited data

Results flagged for a closer look

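In 5 genes, 4 of them members, the targeted libraries of at least 1 SUM159 group and 1 MDA-MB-231 set lay on opposite sides of the No gRNA libraries of their line without overlap. The share of all genes that part in this way was not computed, and the SUM159 contrasts took part in the choice of members. Nothing is therefore read from the count. Of the opposed values below, AKR1B1 with All gRNA, NQO1 in set 2 and KEAP1 with All gRNA were not called. The difference between the lines was not tested, and for these cells line, culture medium and run cannot be told apart. AKR1B1 and NQO1 parted in this way in every targeted group. AKR1B1 stood at 0.13 and 0.31 on the log2 scale in SUM159 with All gRNA and gRNA 4, against -0.44 in set 1 and -0.26 in set 2. NQO1 stood at 0.27 and 0.31 in SUM159, against -0.74 in set 1 and -0.10 in set 2. For the other 3 genes it held for set 2 and not for set 1. AKR1C1 had a log2 difference of 1.46 with All gRNA and 1.37 with gRNA 4 in SUM159 and of -1.30 in set 2, while set 1 overlapped its control (-0.09). TXNRD1 had -0.30 and -0.21 in SUM159 and 0.29 in set 2, while set 1 lay on the same side as SUM159 (-0.13). KEAP1, the adaptor that marks NRF2 for degradation, had -0.17 with All gRNA and 0.37 in set 2, while set 1 stood at -0.14.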

How the results depend on the processing

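The choice of control changed most. With wild type cells in place of No gRNA cells, the log2 differences of named genes that turned sign in SUM159 with All gRNA were AKR1B1 (-0.13), NQO1 (-0.44), HMOX1 (2.15), TXNRD1 (0.064), FTL (0.021), IDH1 (0.26), NFE2L1 (0.31), NFE2L2 (-0.51) and BACH1 (-0.29). With gRNA 4 they were AKR1C3 (0.99), NQO1 (-0.40), TXNRD1 (0.16), ABCC3 (0.37), SQSTM1 (0.79), NFE2L2 (-0.54) and BACH1 (-0.24). In MDA-MB-231 set 1 they were AKR1C1 (0.67), GCLM (-0.95), SRXN1 (-0.19), BACH1 (2.42), FTL (-0.40) and NFE2L2 (0.41). In set 2 they were AKR1C2 (0.26), BACH1 (1.20), CBR1 (-0.0796), CBR3 (-0.18), MAFF (0.43), NFE2L1 (0.51), NFE2L2 (0.018), PRDX1 (-0.10), SLC48A1 (0.0043), SLC7A11 (0.52) and TXN (-0.39). Against wild type cells the wider list had 20 changed genes with All gRNA, 19 with gRNA 4, 23 in set 1 and 9 in set 2, and 1 member passed TREAT with gRNA 4 and 1 in set 1. The shares over all genes in these wild type contrasts were not computed. AKR1C1 in No gRNA against run 1 wild type cells turned from -0.21 to 0.38 when AKR1C2 was summed with it and to 0.51 with AKR1C3 as well, and in set 1 against No gRNA to 0.053 when AKR1C2 was summed. In each of these cases the groups or sums compared are other ones by construction.

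Of 1226 values of members under an alternative, 1151 kept direction and call, 38 lost the call, 14 gained it and 23 turned sign, 12 of these between values neither of which was called. DESeq2 turned KEAP1 to -0.0020 between All gRNA and gRNA 4. Leaving out 1 library turned the sign of uncalled values, with ranges of -0.046 to 0.055 for AKR1C3 and -0.016 to 0.11 for NFE2L2 in gRNA 4 cells, of -0.23 to 0.12 for AKR1C1, -0.011 to 0.18 for GCLM and -0.097 to 0.036 for BACH1 in set 1, and of -0.16 to 0.35 for AKR1C3 between the sets. Between All gRNA and gRNA 4 they were -0.038 to 0.085 for NFE2L2, -0.11 to 0.085 for KEAP1 and -0.55 to 0.40 for BACH1, and between the wild type runs -0.45 to 0.12 for BACH1. The number of members past TREAT with All gRNA, a contrast that took part in their choice, fell from 1 to 0 with library totals as scale, without a low-count filter, with only the groups compared in the fit and with the replicate block. Leave-one-out refits gave 0 to 1, and only 1 of the 6 refits kept the count of 1. With gRNA 4, DESeq2 and edgeR each called 1 member past TREAT, and edgeR called 1 in set 2. Between All gRNA and gRNA 4, DESeq2 called 3 members, the fit without a filter 1 and leave-one-out refits 0 to 1, while the wider list had 0 changed genes with only the groups compared and 1 to 3 in leave-one-out refits. The cause was not tested.

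Replicate numbers did not pair the samples, since same-numbered libraries deviated together with r of -0.083 to 0.059 in SUM159 and -0.052 to 0.040 in MDA-MB-231 and 0 of 18 pairs in either line were over 0.1. With the replicate number as a block, 6 members were called with All gRNA and 6 with gRNA 4, against 7 without it. Depth limits AKR1B10 throughout and AKR1C1 and AKR1C2 in MDA-MB-231.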
